A study of Mus musculus with 20 samples.

Results

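Oligodendrocyte precursor cells (OPCs) of the mouse basolateral amygdala (BLA) were selected on their own transcripts, and 404 of 5908 kept barcodes (6.84%) of 9 single-cell libraries were members. A barcode was kept when mitochondrial genes took at most 1 in 8 of its unique molecular identifiers (UMIs, each standing for 1 captured transcript) and at least 200 genes were detected. A kept barcode was a member when it held at least 3 UMIs summed over the OPC markers Pdgfra, C1ql1, Matn4, Lhfpl3, Vcan, Cspg4, Gpr17 and Neu4, and at most 2 UMIs summed over 13 markers of other cells (Mog, Mag and Ermn of oligodendrocytes, Cx3cr1 and C1qa of microglia, Cldn5 and Flt1 of endothelium, Gja1 and Aqp4 of astrocytes, Kcnj8 and Vtn of mural cells, Slc17a7 and Gad1 of neurons). Because these 21 genes chose the members, their values in the members are a description and were not tested.

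The mice were male wild-type C57BL/6 animals, 13 weeks old, each giving 1 BLA droplet library (10x Chromium) of dissociated tissue, and the prefrontal cortex libraries labelled with the same mouse numbers were not used here. Corticosterone (CORT), the main stress hormone of rodents, was supplied to mice for 6 weeks in drinking water (35 µg/ml) as a model of chronic stress, and its controls are labelled BCD, the cyclodextrin vehicle. The design text of the series instead describes plain drinking water for controls, so whether they drank the vehicle is not settled by these sources. Mice then received ketamine (Ket), an NMDA receptor antagonist with antidepressant action, at 10 mg/kg into the peritoneum, or saline (Sal), and the tissue was taken 24 h later. Of the 9 libraries, mice 9901 and 9947 gave those of BCD/Sal and mice 9946, 9949 and 9986 those of BCD/Ket. Mouse 9969 stood for CORT/Sal, and mice 9967, 9968 and 9971 for CORT/Ket. The other CORT/Sal library, of mouse 9970, was left out by the rule. The tissue label is BLA in all of them, although the protocol text attached to the samples describes dissection of the prefrontal cortex.

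OPCs are the proliferating glia of the adult brain from which myelinating oligodendrocytes arise. They divide in response to PDGF through the receptor Pdgfra, carry chondroitin sulfate proteoglycans such as the NG2 protein encoded by Cspg4, and receive direct synaptic input from neurons through glutamate and GABA receptors. As they commit to differentiation they lose Pdgfra, pass through a stage marked by the receptor Gpr17 and then switch on myelin genes.

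The members held 713094 UMIs in all. A member had a median of 1189 UMIs (from 400 to 7533) and of 813.5 detected genes, and a median of 6.37% of its UMIs were mitochondrial. The whole libraries held from 811628 (CORT/Ket 9967) to 7281768 UMIs (CORT/Sal 9969) over all barcodes. Depth differed between libraries, with a median of 752.5 UMIs per member of BCD/Sal 9901, 909 for CORT/Ket 9971, 1222 for BCD/Ket 9986, 1471 for BCD/Ket 9949, 1906 for CORT/Sal 9969 and 2580.5 for CORT/Ket 9968. Most members lay well inside the rule, with a median of 14 marker UMIs and with 314 of the 404 holding no UMI of the 13 markers of other cells. At the edges, 13 members had exactly 3 marker UMIs and 28 barcodes just outside had 2, while 17 members had exactly 2 UMIs of the other cells and 6 barcodes just outside had 3. No doublet caller was run, and the cap on markers of other cells left out 104 barcodes with 3 or more OPC marker UMIs. No barcode sequence was shared between members of different libraries, and 3 member barcodes recurred in another library among barcodes that were not members.

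The share of OPCs was similar in 6 libraries and low in the other 3. It was 6.28% of kept barcodes in BCD/Sal 9901 (80 of 1274, exact binomial 95% interval 5.01 to 7.75%), 7.41% in BCD/Ket 9949 (49 of 661) and 7.99% in BCD/Ket 9986 (73 of 914). In the CORT libraries it was 7.68% in CORT/Sal 9969 (53 of 690), 10.95% in CORT/Ket 9968 (68 of 621, interval 8.60 to 13.7%) and 7.39% in CORT/Ket 9971 (74 of 1002). These 6 libraries had a mean of 7.95% ± 1.58 (SD, n = 6) and held 397 of the 404 members. BCD/Sal 9947 had 2 members among 250 kept barcodes (0.8%), BCD/Ket 9946 had 1 among 361 (0.277%) and CORT/Ket 9967 had 4 among 135 (2.96%). The 2 members of BCD/Sal 9947 were deep (2509 and 5063 UMIs) but held no UMI of Pdgfra, Gpr17, Olig1, Olig2 or Sox10. Their identity as OPCs is therefore doubtful, and they are counted here because they met the rule.

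The 3 libraries with few OPCs stood apart in astrocytes as well. Barcodes inside an astrocyte gate built from the same genes (at least 3 UMIs of Gja1 and Aqp4, at most 2 of the other selecting genes) made up 12.2% to 28.0% of kept barcodes in the 6 libraries, and each of the 3 had 1 such barcode. Oligodendrocytes, gated in the same way on Mog, Mag and Ermn, took 20.8% of kept barcodes in 9946, 9.2% in 9947 and 2.22% in 9967, against 3.30% to 6.35% in the 6. One such library belonged to each of BCD/Sal, BCD/Ket and CORT/Ket, so these libraries and the groups overlapped.

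**Figure D1:**
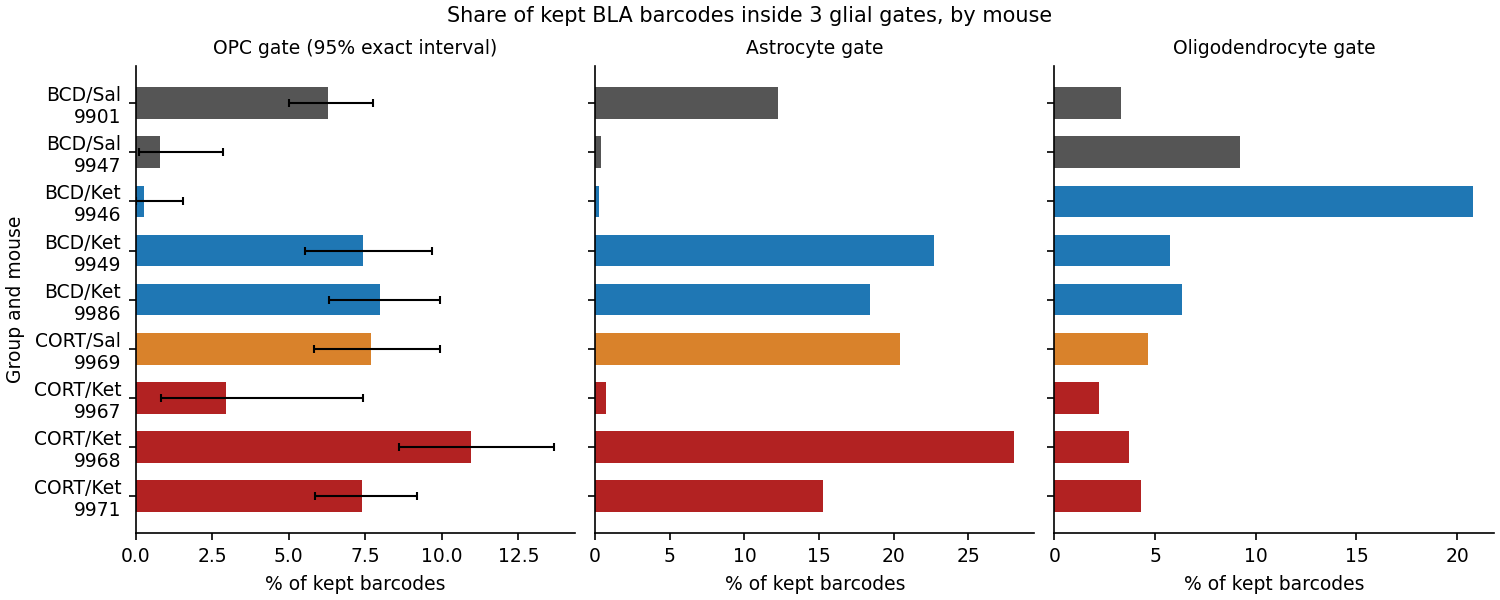
Share of kept BLA barcodes (x axis, %) inside the OPC, oligodendrocyte and astrocyte gates, 1 bar per mouse (y axis, grouped by treatment), with exact binomial 95% intervals on the OPC bars. Mice 9946, 9947 and 9967 have OPC shares of 0.277%, 0.8% and 2.96% and 1 astrocyte each, while the other 6 have OPC shares from 6.28% to 10.95%.

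The OPC share of kept barcodes did not differ between treatments by more than the spread between mice. Over the 9 libraries the share was 6.16% ± 3.85 (SD, n = 6) after ketamine and 4.92% ± 3.64 (n = 3) after saline, a difference of 1.24 percentage points (two-sided exact permutation p = 0.619). It was 7.24% ± 3.28 (n = 4) with CORT and 4.55% ± 3.72 (n = 5) with BCD, a difference of 2.69 points (exact permutation p = 0.302). Between CORT/Ket and BCD/Ket, with 3 libraries each, the difference was 1.87 points (exact permutation p = 0.7, where 0.1 is the smallest this design allows). With the tests of the Gpr17-high share given later these are 5 comparisons, and every adjusted p was 0.8. With only the 6 libraries that had at least 10 members, the differences were 1.45, 1.45 and 1.47 points. As a share of the barcodes inside the OPC, oligodendrocyte or astrocyte gate, OPCs made up 50.0%, 25.7% and 27.4% in CORT/Ket (9967, 9968 and 9971) and 1.30%, 20.7% and 24.4% in BCD/Ket (9946, 9949 and 9986). These groups did not overlap, with a difference of 18.9 points (exact permutation p = 0.1, the smallest this design allows), and mouse 9967 had only 8 such barcodes. On that base CORT and BCD differed by 15.1 points (exact permutation p = 0.143).

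The label was checked against lineage genes that the rule did not use. Olig1, Olig2 and Sox10, transcription factors that specify the oligodendrocyte lineage, gave at least 1 UMI in 330 of the 404 members (81.7%, median depth 1189 UMIs). The same was seen in 10.9% of the other kept barcodes (median 1583 UMIs), in 16.4% of barcodes of the astrocyte gate (median 2079 UMIs) and in 86.4% of the oligodendrocyte gate (median 2225 UMIs). The 74 members without such a UMI were shallower, with a median of 831 UMIs and 7 marker UMIs, against 1288.5 and 15 in the rest.

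A few members carried transcripts of other cells. There were 6 that held from 37 to 188 UMIs of a list of 7 mural genes (smooth muscle and pericytes), no UMI of Olig1, Olig2 or Sox10, and only Cspg4, which pericytes also make, among the 8 OPC markers. These 6 held 99.5% of all mural UMIs of the members, led by the smooth muscle actin gene Acta2 with 355 UMIs, and came from BCD/Sal 9901 (1), BCD/Ket 9949 (1), BCD/Ket 9986 (1) and CORT/Sal 9969 (3). Another 2 members, both from CORT/Ket 9971, held 26 and 37 UMIs of fibroblast genes, led by the matrix proteoglycan Dcn, with 3 Pdgfra UMIs each and no other OPC marker. Thus 8 members met the rule through a single marker that vascular cells share with OPCs.

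Other foreign transcripts were sparser or broader. Globin genes took 696 UMIs in 1 member of CORT/Ket 9971, 2 members held 3 or more UMIs of microglial genes, and no member held 3 UMIs of endothelial genes (Cdh5 and Tek were at 0). Neuronal genes reached 10 UMIs in 41 members, 17 of them without an Olig1, Olig2 or Sox10 UMI, and their most abundant gene was the long noncoding RNA Meg3. Summed over the list, neuronal genes stood at 8702 CPM (counts per 1000000, here the UMIs of a gene per 1000000 UMIs summed over the cells named) in BCD/Sal 9901 and at 2364 to 3851 CPM in the other 5 libraries.

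Among genes with a UMI in at least 20% of members, the 15 with the largest excess over all other kept barcodes held the 8 selecting markers and 7 genes outside the rule. Those 7 were Susd5, Emid1, Qpct, Sema3d, Pcdh15, Nxph1 and Cacng4. Susd5 stood at 193.5 CPM in members and 1.27 CPM in other barcodes, and it had no UMI in either the oligodendrocyte or the astrocyte gate. Pdgfra, the selecting marker found in most members (370 of 404), stood at 2464 and 10.6 CPM. By library, in the order BCD/Sal 9901, BCD/Ket 9949, BCD/Ket 9986, CORT/Sal 9969, CORT/Ket 9968 and CORT/Ket 9971, which is kept for all series of 6 values here, Pdgfra stood at 2715, 2542, 2782, 1935, 2160.0 and 3597 CPM.

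Levels outside the rule were then set beside those of oligodendrocytes and astrocytes of the same 6 libraries, gene by gene. Of 20 lineage genes outside the rule, 18 were above both gates in each of the 6 libraries, the exceptions being Sox10 and Bcan. Over all 14575 genes with a UMI in the members, 9.76% were above both gates in each of the 6 libraries, and over the 3527 genes with a UMI in at least 10% of members it was 25.8%. Since the members were chosen for genes that go with these, the comparison describes the members and carries no test. Neuronal transcripts showed the same pattern, since 4 of 12 neuron markers (Snap25, Syt1, Meg3 and Snhg11) and the neuropil genes Camk2n2 and Shank1 were also above both gates in every library. Their part in the counts given next for receptors, channels and adhesion molecules was not tested.

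**Figure D2:**
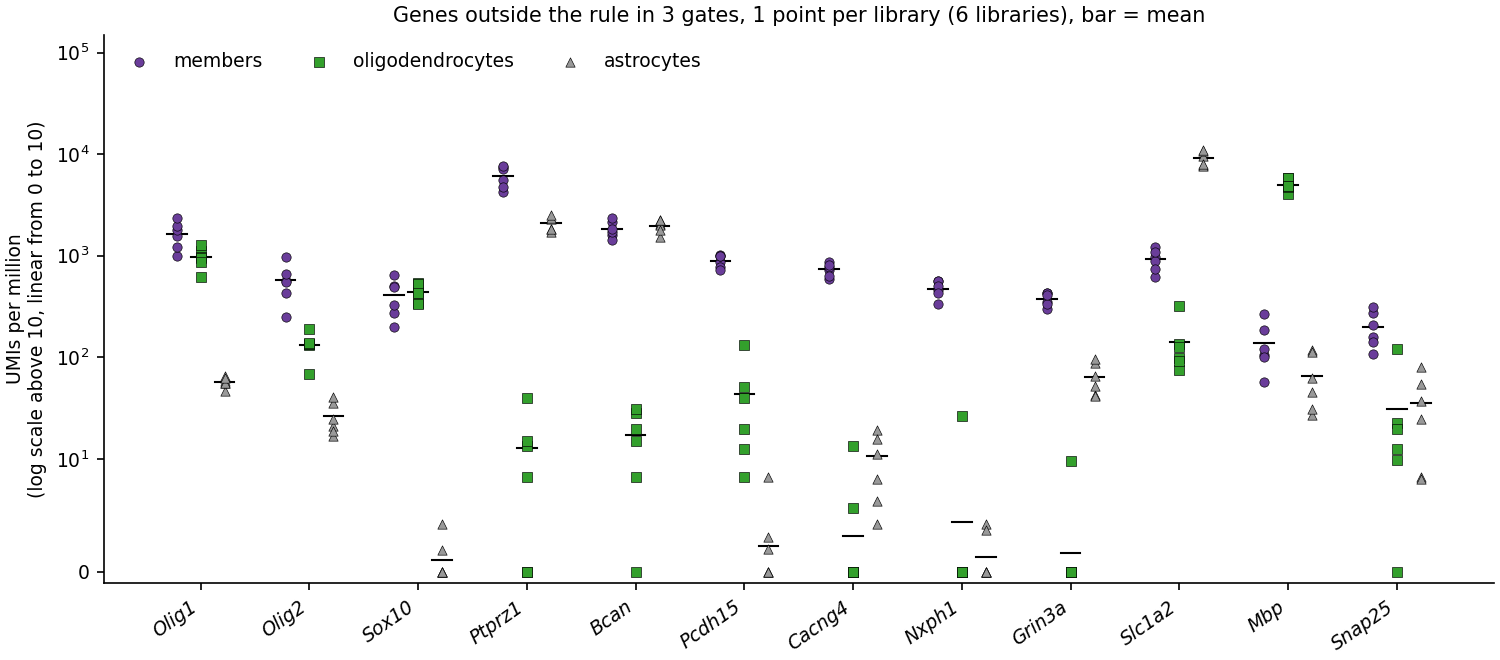
Levels of 12 genes outside the rule (x axis) in OPC members, oligodendrocytes and astrocytes, as CPM (y axis, log scale above 10 and linear below), with 1 point per library (6 libraries) and a bar at the mean. Pcdh15, Cacng4 and Nxph1 lie above both other gates in every library, Sox10 overlaps with oligodendrocytes, Bcan with astrocytes, and Mbp in OPCs (mean 140 CPM) lies far below oligodendrocytes (4075 CPM or more).

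Of 22 lineage transcription factors, 15 were above oligodendrocytes and 13 above astrocytes in every library. Olig1 stood at 986, 1548, 1808, 1973, 2379 and 1216 CPM in the 6 libraries, against 611 to 1263 CPM in oligodendrocytes and 46.3 to 65.6 CPM in astrocytes. Olig2 ranged from 251 to 970 CPM in OPCs and from 68.4 to 188 CPM in oligodendrocytes. Sox10 ranged from 201 to 651 CPM, overlapping with 333 to 544 CPM in oligodendrocytes, whereas astrocytes had at most 4.21 CPM. In all, 10 of the 22 were above both gates in every library.

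Factors known for holding precursors undifferentiated were among these 10. Sox6 stood at 358 ± 102 CPM (SD, n = 6) in OPCs and at most 13.3 CPM in oligodendrocytes, and Sox5 at 172 ± 36.8 CPM and at most 17.03 CPM. Myrf, the factor that drives myelin gene transcription, had the opposite order, with 41.0 ± 18.4 CPM in OPCs and 292 to 441 CPM in oligodendrocytes. Hes5, a target of Notch signalling that represses differentiation, ranged from 143 to 894 CPM in OPCs, overlapping with 227 to 985 CPM in astrocytes.

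Proteoglycans of the cell surface and matrix, which OPCs are known to carry, came next. Ptprz1, a receptor phosphatase that carries chondroitin sulfate, was detected in 96.0% of members at 7473, 5543, 7102, 4254, 4748 and 7646 CPM, above astrocytes (1703 to 2525 CPM) and oligodendrocytes (at most 39.7 CPM) in every library. Cspg5 stood at 4484 ± 671 CPM against 1837 to 2550.1 CPM in astrocytes, and Tnr, which encodes the perineuronal matrix protein tenascin-R, at 1281 ± 350 CPM against at most 15.6 CPM. Bcan, encoding brevican, did not separate OPCs from astrocytes, with 1851 ± 349 CPM and 1546 to 2269 CPM. Sparcl1, a secreted synaptogenic protein, was below astrocytes, at 1294 ± 241 CPM against at least 3758 CPM, and Hapln2 had no UMI in any member of the 6 libraries.

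Of 18 genes of this matrix list, 7 were above both gates in every library. Serpine2, a secreted protease inhibitor, was one of them, at 1809 ± 365 CPM against 590 to 819 CPM in astrocytes. Sdc3, a heparan sulfate proteoglycan, was another, at 662 ± 127 CPM against at most 54.4 CPM.

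Of 27 receptors for mitogens and differentiation signals, 4 were above both gates in every library (Erbb4, Ednrb, Lingo1 and Ptprz1), and 4 of the 13 detected in at least 10% of members (30.8%, beside 25.8% of all such genes). Ednrb, the endothelin B receptor, stood at 817 ± 170 CPM in OPCs, 433 to 604 CPM in astrocytes and at most 14.8 CPM in oligodendrocytes. Lingo1, a receptor that restrains myelination, stood at 134 ± 48.3 CPM against at most 45.1 CPM in astrocytes. Fgfr2 had no UMI in any member of the 6 libraries and 305 to 412 CPM in oligodendrocytes, and Gpr37 showed the same order with 8.81 ± 9.30 and at least 717 CPM.

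Of the glutamate receptor genes, 13 of 22 were above both gates in every library, and 11 of the 12 detected in at least 10% of members. Gria2, the AMPA receptor subunit that limits calcium entry, was found in 94.3% of members at 3372, 2625, 2599, 1661, 1732 and 3647 CPM, overlapping with 1981 to 2673 CPM in astrocytes. Gria3 stood at 503 ± 183 CPM and at most 63.2 CPM in astrocytes, and Gria4 at 276 ± 104 CPM and at most 16.9 CPM. Cacng4, an auxiliary subunit of AMPA receptors, stood at 733 ± 106 CPM and at most 19.3 CPM in either other gate. Gria3, Gria4 and Cacng4, unlike Gria2, thus separated OPCs from both other glia in these libraries.

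Among subunits of the NMDA receptor, the target of ketamine, the noncanonical Grin3a was detected in 43.1% of members and stood at 429, 429, 348, 300.2, 334 and 414 CPM, above 41.8 to 96.6 CPM in astrocytes and at most 9.81 CPM in oligodendrocytes. The obligatory subunit gene Grin1 was detected in 7.18% of members (57.9 ± 32.7 CPM), Grin2b in 4.95% and Grin2a in 2.97%. UMI counts are not scaled by transcript length and capture, so these figures describe detection and do not rank the subunits. Grin2b was also the leading gene of a subcluster of 66 members with neuronal transcripts, given later. It was detected in 21.2% of those members, at 320 CPM against 9.59 CPM in the other members. The part of neuronal transcripts in its detection was not tested. Grm5, the metabotropic receptor mGluR5, was detected in 37.4% of members and stood at 322 ± 148 CPM, with its highest value of 614 CPM in BCD/Sal 9901.

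Of the ion channel and GABA receptor genes, 18 of 28 were above both gates in every library, and 13 of the 19 detected in at least 10% of members. Scn3a, a voltage-gated sodium channel, stood at 173 ± 21.6 CPM against at most 13.3 CPM in the other gates. Kcnd2, an A-type potassium channel, stood at 259 ± 46.1 CPM against at most 70.4 CPM. The inward rectifier Kcnj10, a channel of all macroglia, did not separate them, with 223 ± 59.8 CPM in OPCs, 160 to 324 CPM in oligodendrocytes and 137 to 265 CPM in astrocytes.

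Of the adhesion molecules of synapses, 17 of 25 were above both gates in every library, and 16 of the 23 detected in at least 10% of members. Opcml, a GPI-anchored adhesion molecule, stood at 962 ± 169 CPM against at most 62.4 CPM in either gate. Nlgn3, a postsynaptic neuroligin, stood at 420 ± 88.1 CPM against 94.1 to 118 CPM in astrocytes. Ncam1 differed less, with 1027 ± 45.6 CPM in OPCs, 526 to 664 CPM in astrocytes and 494 to 690.3 CPM in oligodendrocytes. Ntm, which encodes the related molecule neurotrimin, is described with the CORT comparison.

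Of 24 listed genes of the corticosteroid response, 1 was above both gates in every library, beside 9.76% of all genes with a UMI in the members. Of the 4 detected in at least 10% of members, 0 were, beside 25.8% of all such genes. The glucocorticoid receptor gene Nr3c1 was detected in 19.6% of members, at 85.7, 105, 183, 166, 154 and 100.3 CPM, within the range of astrocytes (96.9 to 212 CPM) apart from the lowest library. The mineralocorticoid receptor gene Nr3c2 was detected in 2.23% of members. Fkbp5, a chaperone induced by glucocorticoids, stood at 57.2, 62.8, 26.1, 6.39, 27.4 and 50.1 CPM, and was the 1 gene of 24 above both gates in every library. In CORT/Sal 9969, with 156577 member UMIs, its 6.39 CPM is a single UMI, so this order rests on very low counts. Tsc22d3 and Mt1, both glucocorticoid targets, were below astrocytes, with 25.4 ± 14.2 against at least 71.6 CPM and 183 ± 40.9 against at least 3931 CPM. Detection of this list was therefore sparse, and 5 of its 24 genes could be tested for CORT, as given later.

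Planar cell polarity genes, the subject of the study, were sparsely detected. Vangl2, a core membrane protein of the pathway, was detected in 18.6% of members at 100.02, 178, 122, 76.6, 159 and 87.7 CPM, above astrocytes (21.1 to 54.0 CPM) and oligodendrocytes (at most 31.1 CPM) in every library. Of the 13 listed genes only Vangl2 was so, beside 9.76% of all genes with a UMI in the members. Celsr2, an atypical cadherin, stood at 95.5 ± 16.1 CPM, close to the 92.0 to 122 CPM of astrocytes. Celsr3 was detected in 1.98% of members and Prickle2 in 6.93%, and Celsr1 had no UMI in the members of the 6 libraries against 30.9 to 51.9 CPM in astrocytes.

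Of the genes around BDNF, which ketamine engages through the eEF2 kinase, none of 14 was above both gates in every library. Over all genes with a UMI in the members that share was 9.76%. Ntrk2, the BDNF receptor TrkB, stood at 810.4 ± 133 CPM, below astrocytes (1373 to 1965 CPM). Eef2k was detected in 8.42% of members, and Bdnf in 0.248%, which is 1 member.

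Of 17 listed genes of antigen presentation and inflammation, 2 were above both gates in every library, beside 9.76% of all genes with a UMI in the members. Among those detected in at least 10% of members it was 2 of 4 (50.0%, beside 25.8% of all such genes). H2-D1, a class I histocompatibility gene, stood at 100.02, 345, 122, 192, 241 and 238 CPM, above oligodendrocytes (at most 29.4 CPM) and astrocytes (at most 18.5 CPM) in every library, as did B2m, which encodes its light chain, at 125 ± 64.0 CPM. Cd74, of the class II pathway, had no UMI in any member of the 6 libraries.

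Myelin genes showed the opposite pattern, with none of 16 above oligodendrocytes in all libraries. Mbp stood at 140 ± 76.0 CPM in OPCs and at least 4075 CPM in oligodendrocytes, Mal at 12.49 ± 10.3 and at least 5788 CPM, and Opalin had no UMI in any member of the 6 libraries. Gjc3, a gap junction gene shared along the lineage, overlapped between OPCs (889 ± 217 CPM) and oligodendrocytes (509 to 1167 CPM). The list summed to 2095 to 3103 CPM in 5 libraries and 8197 CPM in CORT/Ket 9971, where Ptgds stood at 4650.2 CPM and Apod at 1354 CPM. That library also held the 2 members with fibroblast transcripts, and their part in this excess was not tested.

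The Gpr17-high subgroup was set by the rule that Gpr17 UMIs reach 3 and exceed those of Pdgfra, and held 26 of the 404 members (6.44%, exact binomial 95% interval 4.25 to 9.29%). Gpr17 is the receptor that marks precursors on the way to premyelinating oligodendrocytes. It gave no UMI in the astrocyte gate, but that gate allowed few UMIs of the OPC markers by its definition. Both receptors had a UMI in 231 members, Gpr17 in 243, Pdgfra in 370, and neither in 22. The subgroup's edge was soft, since 6 of the 26 had exactly 3 Gpr17 UMIs, 10 more members had 2 with fewer of Pdgfra, and 52 had 3 or more without exceeding Pdgfra. Its members were somewhat deeper, with a median of 1465 UMIs against 1160.5 in the others.

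Genes outside the selecting markers differed between the subgroups as follows, with Gpr17-high members summed against the other 378. Bmp4, a growth factor of committed precursors, stood at 213 against 6.00 CPM (10 and 4 UMIs) and was higher in each of the 5 libraries with at least 3 Gpr17-high members. In BCD/Ket 9949, CORT/Sal 9969 and CORT/Ket 9968 this rested on 1 Bmp4 UMI each among the Gpr17-high members. Fa2h, which makes the hydroxylated lipids of myelin, stood at 234 against 54.0 CPM, and Cd9, a tetraspanin, at 2150.1 against 729.6 CPM, again higher in 5 of 5 libraries. Fa2h had only 11 UMIs in the Gpr17-high members and 36 in the others, and in BCD/Ket 9949 it stood at 106.9 against 69.6 CPM. The AMPA receptor subunit Cacng4 ran the other way, at 426 against 727 CPM and lower in 5 of 5.

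Of 18 genes listed for committed precursors, 16 were higher in the Gpr17-high members, with a median fold of 1.77. These are sums over all cells, and 2 of the 18 (Cd9, and Bmp4 on the few UMIs given above) were higher in all 5 libraries. Frmd4a and Rras2 were higher in 1 of 5, and Mycl, Nkx2-2 and Tmem163 in 2 of 5. Of 22 lineage transcription factors, 15 were higher, with a median fold of 1.31. Over all 6611 genes with a UMI in at least 5% of members, 3081 were higher and the median fold was 0.952. Bcas1 (404 against 171 CPM), Fyn (532 against 219 CPM) and Sirt2 (681 against 317 CPM) were each higher in 4 of 5 libraries. Tcf7l2, a transcription factor of newly formed oligodendrocytes, stood at 170.3 against 73.6 CPM and was higher in 3 of 5. These values carry no test, because the cells were chosen by Gpr17.

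**Figure D3:**
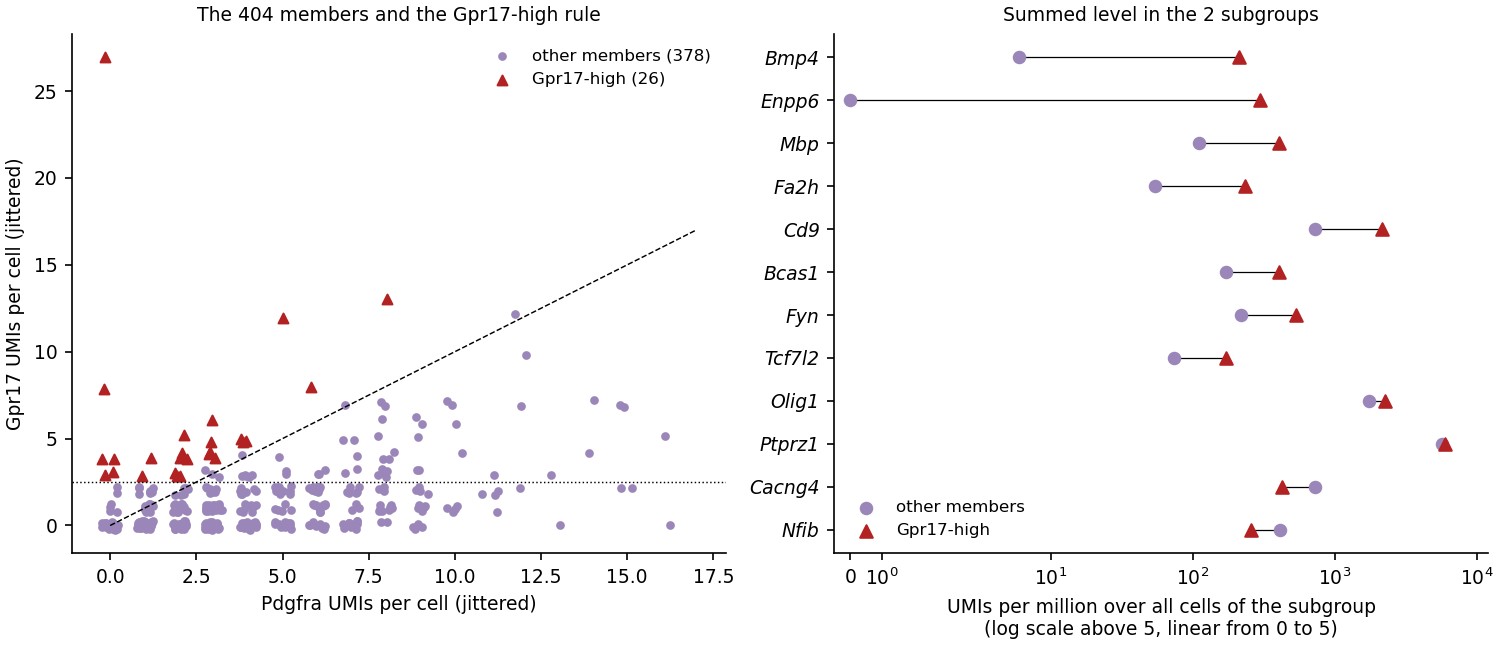
Left, Gpr17 against Pdgfra UMIs of the 404 members (both axes UMIs per cell, points jittered), with the 26 Gpr17-high members as triangles, the line of equal counts dashed and the lower limit of 3 Gpr17 UMIs as a dotted line just under it. Right, levels of 12 genes in CPM over all cells of each subgroup (log scale above 5), with Cd9 at 2150.1 against 729.6 and Enpp6 at 298 against 0.

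Transcripts of later stages were concentrated in 4 cells. Enpp6, an enzyme of newly forming oligodendrocytes, gave 14 UMIs in 4 of the 26 Gpr17-high members and none in the other 378, so its level in the subgroup was at least 66.2-fold higher when the others are set to a floor of 3 counts over the group. These 4 cells came from CORT/Ket 9968, CORT/Ket 9971 and BCD/Ket 9986 (2 cells), had no Pdgfra UMI, and held 16 of the 19 UMIs of the subgroup for Mbp, the myelin basic protein gene, and 7 of the 10 for Bmp4. The level of Cd9 was 6903 CPM in these 4 cells and 1304 CPM in the 22 Gpr17-high members without Enpp6. Of those 16 Mbp UMIs, 12 came from 1 cell of BCD/Ket 9986.

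A single library moved these levels. Without BCD/Ket 9986, Mbp stood at 171 CPM against 98.7 CPM (404 against 111 CPM with it), and Bmp4 at 122 against 5.39 CPM (5 UMIs in the 22 cells left). Frmd4a, 19 of whose 20 UMIs in the subgroup came from 1 cell, then had no UMI among the Gpr17-high members. Enpp6 then had 4 UMIs (97.6 CPM), and its level was at least 18.1-fold higher against the same floor. With the same library left out, 15 of the 18 committed genes were higher and the median fold was 1.90.

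Gpr17-high members were spread over all 6 libraries. There was 1 of 80 members in BCD/Sal 9901 (1.25%), 6 of 49 in BCD/Ket 9949 (12.2%) and 4 of 73 in BCD/Ket 9986 (5.48%). There were 4 of 53 in CORT/Sal 9969 (7.55%), 8 of 68 in CORT/Ket 9968 (11.8%) and 3 of 74 in CORT/Ket 9971 (4.05%). The lowest share belonged to the library with the shallowest members, and the highest to 2 of the 3 deeper ones.

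Before depth was matched, the Gpr17-high share did not differ between treatments beyond the spread between mice. It was 8.39% ± 4.22 (SD, n = 4) after ketamine and 4.399% ± 4.45 (n = 2) after saline, a difference of 3.99 points (exact permutation p = 0.4, smallest possible 0.133). With CORT it was 7.79% ± 3.86 (n = 3) and with BCD 6.32% ± 5.55 (n = 3), a difference of 1.46 points (exact permutation p = 0.8, smallest possible 0.1). To compare equal depths, each member was thinned to 1000 UMIs, members with fewer were left out, and the minimum for Gpr17 was lowered to 2 UMIs. The counts were then 0 of 18, 6 of 39, 4 of 53, 0 of 48, 9 of 61 and 1 of 24, with no Gpr17-high member in either saline library and at least 1 in each ketamine library. The ketamine difference was then 10.5 points (exact permutation p = 0.133, the smallest possible) and the CORT difference -1.34 points. Lowering the minimum to 2 UMIs without thinning gave 3.92 and -0.59 points. In BCD/Sal 9901 thinning left out 62 of 80 members.

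Dividing cells were rare. At least 3 UMIs over 8 mitotic genes (Mki67, Top2a, Cdk1, Ccnb1, Ccnb2, Cenpf, Birc5 and Ube2c) were found in 10 members (2.48%, exact binomial 95% interval 1.19 to 4.50%) and in 8 of the 5504 other kept barcodes (0.145%). None of the 10 was Gpr17-high. Ccnd1, the G1 cyclin driven by mitogens, was broader, in 32.2% of members at 271, 356, 409, 600.3, 609 and 188 CPM, and at most 13.3 CPM in the other gates.

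Clustering of the members on 1000 variable genes, with the 21 selecting genes left out, gave 6 subclusters. The smallest, of 9 members, was led by Top2a, Prc1, Cenpa and Mki67 and held 8 of the 10 members with mitotic genes, from 6 libraries. A subcluster of 105 had Pcyox1 (248 against 76.6 CPM in the other members), Thsd7a and Bcas1 among its first 10 genes. Another, of 78 members, was led by Plce1 and Pdzd8, had a Pdgfra level of 3101 CPM beside 3321 CPM in the one of 105, and held most of the fibroblast transcripts (632 CPM for the list).

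The other 3 subclusters differed in depth or held members with transcripts of other cells. One of 95 members was the deepest, with a median of 3289 UMIs against 944.5 to 1291 in the rest, and 33 of its members came from CORT/Ket 9968. One of 66 was led by the neuronal genes Grin2b, Syt1, Meg3 and Snhg11, had a summed neuronal level of 15806 CPM, and held 32 of the 74 members without an Olig1, Olig2 or Sox10 UMI. The 2 members of BCD/Sal 9947 were in this subcluster. One of 51 was led by the actin-binding genes Flna and Cald1 and had 9029 CPM for the mural list, and 762 of its 763 mural UMIs lay in 6 members. In its other 45 members the mural list stood at 16.6 CPM, Flna at 99.7 CPM (876 CPM with all 51) and Cald1 at 299 CPM (1456 CPM with all 51). Every subcluster contained members of at least 5 libraries, and all are described without a test since the clustered genes define them.

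Changes with treatment were tested on UMI counts summed over the members of each library, with the mouse as the replicate and the 6 libraries of at least 10 members. This left 1 library each for BCD/Sal and CORT/Sal and 2 each for BCD/Ket and CORT/Ket. In edgeR 3 contrasts were fitted over 3975 genes: CORT/Ket against BCD/Ket, ketamine against saline over both drinking water arms, and CORT against BCD over both injections. They share libraries, so their lists are not independent of each other.

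CORT/Ket against BCD/Ket gave 7 genes with an adjusted p under 0.05, 0.176% of those tested, all lower in CORT/Ket. They were the smooth muscle genes Acta2 and Myh11 (actin and myosin heavy chain), Myl9 and Mylk (myosin light chain and its kinase), Tagln and Tpm2 (actin-binding proteins), and the secreted binding protein gene Igfbp7. Acta2 (chr19:34315580-34329826, minus strand, mm9) gave 1, 70, 56, 228, 0 and 0 UMIs in the 6 libraries, so that the BCD/Ket libraries held 126 and the CORT/Ket libraries none. It was at least 52.3-fold lower in CORT/Ket at a floor of 3 counts over the group (edgeR adjusted p = 5.1e-18). The same bound was 25.7-fold for Myl9, 25.3-fold for Myh11, 19.5-fold for Tagln and 12.4-fold for Mylk.

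The UMIs of these genes lay in the members with mural transcripts and not in OPCs at large. The mural list that marked these members itself holds Acta2, Myh11, Tagln and Rgs5. For these genes, their place in those members and their loss on removal therefore follow from the choice. Myl9, Mylk, Tpm2 and Igfbp7 are not in that list. The 8 members with mural or fibroblast transcripts held 354 of 355 Acta2 UMIs, all 151 of Myh11, all 204 of Tagln and 140 of 142 of Myl9, and 93.9% of those of Igfbp7. Neither CORT/Ket library had a member with mural transcripts, against 1 in each BCD/Ket library and 3 in CORT/Sal 9969. Without these 8 members the 7 genes fell under the count filter and no gene passed in this contrast. Without CORT/Ket 9968, 13 genes passed, of which 7 were higher and 6 lower in CORT/Ket, and Igfbp7 did not pass without BCD/Ket 9949, CORT/Sal 9969 or either CORT/Ket library.

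**Figure D4:**
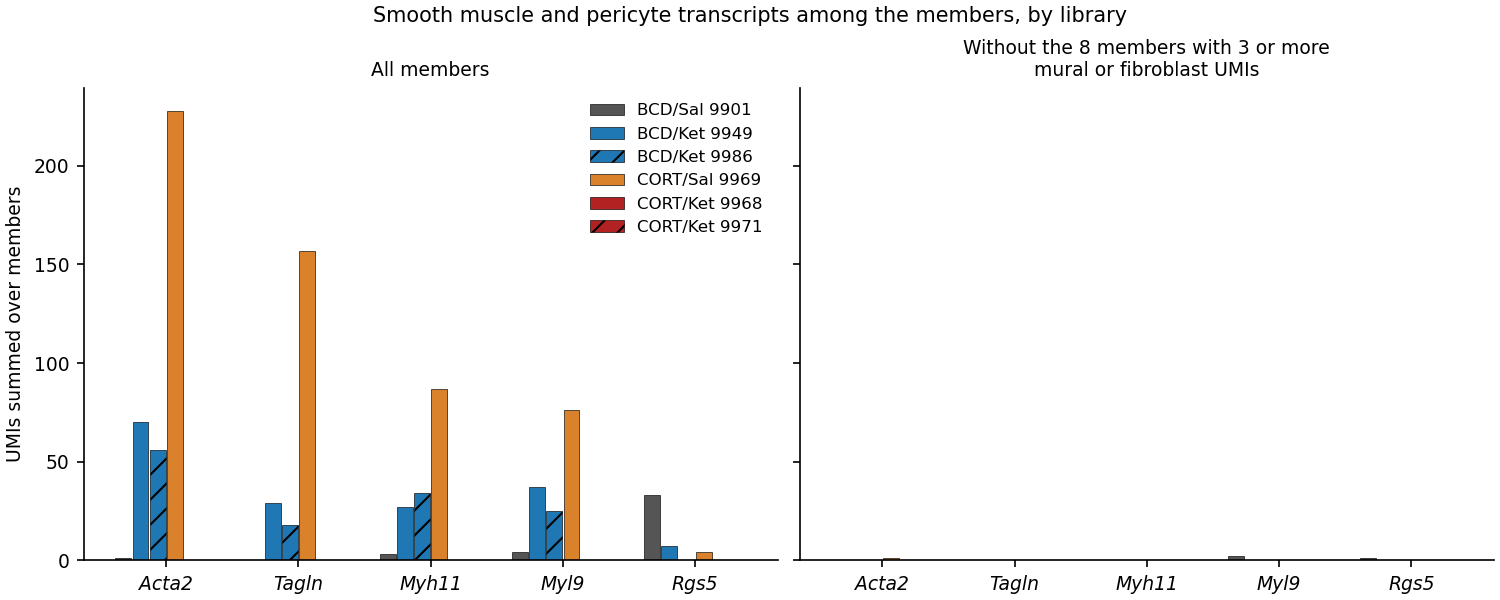
UMIs of 4 smooth muscle genes and the pericyte gene Rgs5 (x axis) summed over the members of each library (y axis), 1 bar per library, for all members (left) and without the 8 members with 3 or more mural or fibroblast UMIs (right). Acta2 drops from 228 UMIs to 1 in CORT/Sal 9969 and from 70 and 56 to 0 in the BCD/Ket libraries.

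Ketamine against saline gave 1 gene (0.0252% of those tested), Rgs5, a regulator of G protein signalling and a marker of pericytes. It gave 33, 7, 0, 4, 0 and 0 UMIs in the 6 libraries, and was lower after ketamine (log2 fold change -3.87, SE 0.64, edgeR adjusted p = 6.9e-06) although the groups overlapped. Of its 44 UMIs, 43 lay in the members with mural transcripts, 32 of them in a single member of BCD/Sal 9901. Rgs5 also passed in CORT against BCD (log2 fold change -4.24, SE 0.74, edgeR adjusted p = 3.4e-05). Without the 8 members it could not be tested, and no gene passed for ketamine. With all members it did not pass for ketamine without BCD/Ket 9986 (log2 fold change -2.92, edgeR adjusted p = 0.250) or for CORT without CORT/Sal 9969 (log2 fold change -4.92, edgeR adjusted p = 0.559). Without BCD/Sal 9901, which held 33 of its 44 UMIs, it was called in neither contrast, and without BCD/Ket 9949 its log2 fold change for ketamine was -7.35.

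CORT against BCD gave 2 genes (0.0503% of those tested), Rgs5 and Ntm, both lower with CORT. Ntm (chr9:28802335-29770726, minus strand, mm9) encodes neurotrimin, a GPI-anchored adhesion molecule of the IgLON family. Its level in OPCs was 2000.4 (BCD/Sal 9901), 2102 (BCD/Ket 9949), 487 (BCD/Ket 9986), 466 (CORT/Sal 9969), 302 (CORT/Ket 9968) and 489 CPM (CORT/Ket 9971). It was thus high in 2 of the 3 BCD libraries, and BCD/Ket 9986 lay among the CORT libraries. The log2 fold change was -1.85 (SE 0.36, edgeR adjusted p = 7.2e-04), and -1.86 (edgeR adjusted p = 5.8e-04) without the 8 members with mural or fibroblast transcripts.

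In single cells the same pair of libraries was highest for Ntm, and the order of the other 4 differed. At least 1 UMI was found in 62 of 80 members of BCD/Sal 9901 (77.5%) and 46 of 49 of BCD/Ket 9949 (93.9%). In the other libraries it was found in 37 of 73, 35 of 53, 38 of 68 and 27 of 74 members, which is 50.7%, 66.0%, 55.9% and 36.5%. The shallowest library, BCD/Sal 9901, thus had the second highest share. Oligodendrocytes had at most 66.4 CPM of Ntm in any of the 6 libraries.

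The Ntm difference was not limited to OPCs. Astrocytes of the same libraries stood at 1963, 2216, 663, 786, 766 and 767 CPM, and barcodes with at least 3 Slc17a7 UMIs, a marker of excitatory neurons, at 755, 599, 464, 445, 343 and 512 CPM. BCD/Sal 9901 and BCD/Ket 9949 were the highest libraries in each, although the neurons numbered 9 in BCD/Ket 9949 and 5 in CORT/Ket 9968. The ratio of OPCs to astrocytes of the same library was 1.02, 0.949 and 0.734 with BCD and 0.593, 0.394 and 0.637 with CORT, a log2 difference of -0.75 (exact permutation p = 0.1, the smallest that 3 against 3 allows). This ratio was chosen after the values were seen.

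The same pair of libraries stood apart in other transcripts, in OPCs and in the other glia. In OPCs Malat1, a nuclear noncoding RNA, was at 99577 and 93577 CPM in these libraries and at 54856 to 68726 CPM in the other 4. The unplaced transcript AC149090.1 was at 4901 and 3598 against 1228 to 2156 CPM. Both transcripts were also highest in this pair in astrocytes and in oligodendrocytes. Malat1 stood at 105049 and 117618 against 72837 to 87741 CPM in astrocytes, and at 80007 and 76935 against 49856 to 57392 CPM in oligodendrocytes. In barcodes with at least 3 Slc17a7 UMIs the 2 libraries were not the highest pair for either. AC149090.1 was there highest in BCD/Sal 9901 at 4521 CPM, and BCD/Ket 9949 was lowest at 1429 CPM, with at most 2181 CPM elsewhere. Malat1 stood there at 56644 and 38452 CPM in the pair, within the 34154 to 58488 CPM of the other libraries. The part of these transcripts in the Ntm difference was not tested. Without BCD/Ket 9949 the log2 fold change of Ntm for CORT was -1.16 (edgeR adjusted p = 0.653). In CORT/Ket against BCD/Ket Ntm did not pass (-1.74, edgeR adjusted p = 0.0695). Among the settings that left out no library of these 2 groups, it did pass with only the 2 groups in the fit (-1.76, edgeR adjusted p = 0.032). The same held with at least 500 genes (-1.81, edgeR adjusted p = 0.040) and without BCD/Sal 9901 (-1.77, edgeR adjusted p = 0.045). In that contrast Ntm was at -0.30 without BCD/Ket 9949, -2.45 without BCD/Ket 9986 and -2.13 without CORT/Ket 9971, each of which left a single library in the group named. For CORT, Ntm also missed the threshold without CORT/Sal 9969 (log2 fold change -1.72, edgeR adjusted p = 0.0588), without CORT/Ket 9968 (-1.70, edgeR adjusted p = 0.0952), in members with no UMI of the 13 markers of other cells (-1.84, edgeR adjusted p = 0.976) and in DESeq2 (-1.88, adjusted p = 0.999).

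**Figure D5:**
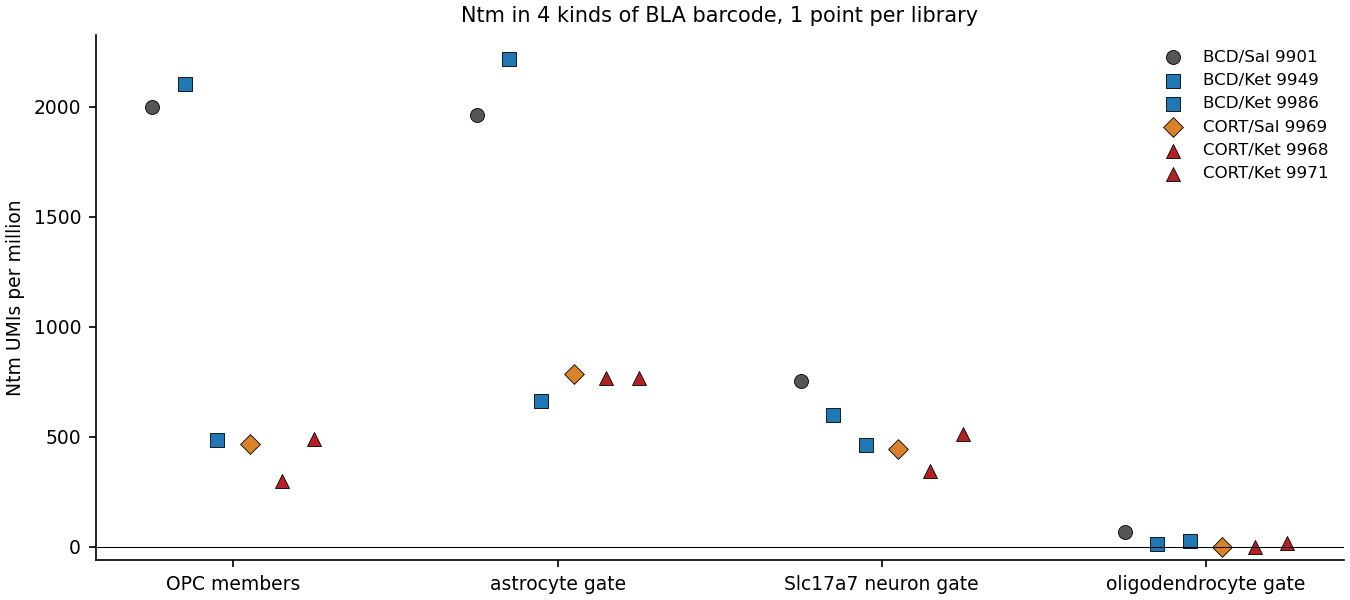
Ntm level (y axis, CPM) in OPC members, the astrocyte gate, barcodes with at least 3 Slc17a7 UMIs and the oligodendrocyte gate (x axis), 1 point per library with colour and shape for the group. In OPCs, BCD/Sal 9901 and BCD/Ket 9949 lie at 2000.4 and 2102 and the other 4 libraries between 302 and 489, and the same 2 libraries are highest in astrocytes.

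The remaining lists held no called gene in any contrast, apart from the mural list and Ntm among the synaptic adhesion genes (1 of 23 tested). For CORT against BCD, 0 of 13 glutamate receptor genes passed (median log2 fold change -0.29), 0 of 21 channel and GABA receptor genes (-0.37), 0 of 15 lineage transcription factors (0.26) and 0 of 9 myelin genes (-0.07), where the median of all 3975 genes was 0.02. The neuron markers had a median of -0.92 (0 of 7 passed), in the direction of the receptor and channel genes, and their part in those medians was not tested. Of the corticosteroid list 5 genes were abundant enough to test and none passed (median 0.24), Nr3c1 having a log2 fold change of 0.19 (SE 0.44). For ketamine against saline, 0 of 13 glutamate receptor genes passed (median 0.03, all genes -0.01), 0 of 4 planar cell polarity genes (0.30) and 0 of 8 genes around BDNF and mTOR (0.00). With 6 libraries these are values without a call, and they do not show that the genes were alike between treatments.

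Some listed genes passed an unadjusted p of 0.05 without passing the adjustment. Over all genes tested, and with those that also passed the adjustment included, the unadjusted p was under 0.05 for 193 genes (4.86%) for CORT against BCD, 74 (1.86%) for ketamine against saline and 57 (1.43%) for CORT/Ket against BCD/Ket. Hes5 stood at 143, 492, 269, 549, 894 and 226 CPM, with a log2 fold change of 0.98 for CORT (SE 0.37, edgeR adjusted p = 0.973), which ran from 0.42 (without CORT/Ket 9968) to 1.45 (without CORT/Ket 9971) when 1 library was left out. Gria4 stood at 343, 303, 400, 134, 164 and 313 CPM, with -0.83 (SE 0.38, edgeR adjusted p = 0.973), and its groups overlapped as well. The neuronal kinase gene Camk2a had a log2 fold change of -1.62 (SE 0.47, edgeR adjusted p = 0.409), with 286 CPM in BCD/Sal 9901, the library with the highest neuronal transcripts, and 44.7 to 156 CPM elsewhere. The rule's own marker genes, with no test read from them, had log2 fold changes for CORT of -0.07 for Pdgfra and -0.03 for Gpr17.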

How the data were processed

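Cells of 9 BLA libraries, 1 per mouse, were analysed from UMI counts that the authors deposited as 1 matrix per library, not normalized, with 31053 genes. Per the labels, reads had been processed with Cell Ranger on mm9 and analysed with Seurat 3.1.1, and the matrix headers give software version 3.0.2. Gates and filters are those of the report's opening. The members, gene lists and tests were chosen with earlier results of these data known. Named genes were those of the lists, the 15 leading genes and the called genes.

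UMIs were summed over members per mouse and tested in edgeR 4.0.16 (R 4.3.3) by the quasi-likelihood test with TMM scaling, the filterByExpr filter and Benjamini-Hochberg adjustment at 0.05. CORT/Ket against BCD/Ket came from 4 group means, the other contrasts from an additive model of CORT and ketamine. DESeq2 1.42.0 was an alternative. Shares were compared by two-sided exact permutation over mice (scipy 1.17.1). Intervals are Clopper-Pearson and, like floors of 3 counts, cover counting error only. Subclusters came from scanpy 1.11.5 (Leiden, 15 components, 15 neighbours, resolution 0.6). No doublet caller was run. Gene positions are from the mm9 annotation. Scripts were tested on simulated data. Results for some genes are not reported here.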

Additional observations from a re-analysis of the deposited data

How the results depend on the processing

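With 1 to 3 libraries per group, few members per library and shallow cells, small differences could not be detected. No paired analysis was possible because the groups compared share no mouse. Setting the mitochondrial limit at 5% left 141 members. For CORT/Ket against BCD/Ket, 4 of the 7 genes passed in DESeq2, and 0 genes passed in Pdgfra-positive members, with at least 5 marker UMIs, at the 5% limit, in members with an Olig1, Olig2 or Sox10 UMI, and without the members with mural or fibroblast transcripts (6 to 13 genes when leaving out 1 library). With at least 5 marker UMIs the log2 fold change of Igfbp7 was 0.65. For ketamine, 3 genes passed with no count filter and 7 at a 25% mitochondrial limit, Rgs5 among both, 10 others without Rgs5 passed with at least 5 marker UMIs (all lower with ketamine), and 0 passed in DESeq2, in Pdgfra-positive members, with no UMI of other cells, at the 5% limit, with a lineage UMI and without mural or fibroblast transcripts (0 to 10 leaving out 1 library, with 6 of 7 higher without CORT/Ket 9968, 2 of 3 higher without CORT/Sal 9969, and 10 lower, Rgs5 not among them, without BCD/Sal 9901). For CORT, 0 genes passed in DESeq2 and with no UMI of other cells, 7 with 4 group means (5 higher and 2, Ntm and Rgs5, lower), 9 with at least 5 marker UMIs (8 higher, among them Acta2, Myh11 and Tagln, and Ntm lower), 5 at the 25% limit (2 higher and 3 lower, Ntm and Rgs5 included), and 1, Ntm, in Pdgfra-positive members, with a lineage UMI and without mural or fibroblast transcripts (3 to 9 leaving out 1 library, with 6 of 7 higher without CORT/Ket 9968, 3 of 7 higher without CORT/Ket 9971, 9 lower, Ntm but not Rgs5 among them, without BCD/Sal 9901, and 6 lower, neither gene among them, without CORT/Sal 9969). At an unadjusted p under 0.05, DESeq2 gave 14, 17 and 42 genes in the 3 contrasts. The settings with a lineage UMI and without mural or fibroblast transcripts were chosen after seeing the data.

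Leaving out 1 library moved the OPC share difference from -0.60 to 3.94 points for CORT/Ket minus BCD/Ket (-0.60 without BCD/Ket 9946), from -0.82 to 2.62 for ketamine (-0.82 without BCD/Sal 9947) and from 1.46 to 4.12 for CORT. Over all barcodes the ketamine difference was -0.040 points. Over barcodes of the 3 glial gates the differences were 18.9, 4.94 and 15.1 points. The Gpr17-high share was 2.72% at a minimum of 5 UMIs. Its CORT difference was -0.59 points at 2 UMIs, -0.098 at 5 UMIs, -1.34 in thinned members and from -1.07 to 4.42 leaving out 1 library, and its ketamine difference was 10.5 points in thinned members and from 0.84 to 7.14 leaving out 1 library. The share with mitotic genes was 5.45% at 1 UMI. The causes were not tested.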

Other observations

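The CORT/Sal library of mouse 9970, which the rule leaves out, held 12 barcodes inside the same gate among 2397 kept barcodes (0.501%, exact binomial 95% interval 0.259 to 0.873%), with a median of 1740.0 UMIs. Of these, 4 had an Olig1, Olig2 or Sox10 UMI, none was Gpr17-high, and together they held 11 Pdgfra UMIs.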
